A study of Oryza sativa with 51 samples.

Results

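The 10 Calvin cycle genes described here were taken by locus identifier from a table of 34653 rice gene identifiers, and all 10 were among the 16842 genes whose mean level over all libraries reached 1 FPKM (fragments relative to transcript length and to the size of the library). Phosphoglycerate kinase (PGK, LOC_Os05g41640) and the A and B subunits of the chloroplast glyceraldehyde-3-phosphate dehydrogenase (GAPA, LOC_Os04g38600, and GAPB, LOC_Os03g03720) act in the reduction phase. Fructose-bisphosphate aldolase (FBA, LOC_Os11g07020), plastid fructose-1,6-bisphosphatase (FBPase, LOC_Os03g16050), sedoheptulose-1,7-bisphosphatase (SBPase, LOC_Os04g16680), transketolase (TKL, LOC_Os06g04270), ribulose-phosphate epimerase (RPE, LOC_Os03g07300) and phosphoribulokinase (PRK, LOC_Os02g47020) act in regeneration. The last gene, CP12 (LOC_Os01g19740), encodes a small regulatory protein. Messenger RNA was measured by strand-specific sequencing of flag leaves, the uppermost leaves below the panicle, from field-grown rice at grain filling. The 3 groups were SE21s, a male-sterile line, MH86, a restorer line, and LY2186, the super-hybrid of this pair, with no treatment named in the labels and grown under the same field conditions. Each line gave 17 libraries, 1 per time, at 3 h steps from Zeitgeber time (ZT) 0 to ZT48. The labels give neither the light schedule, the plant's age in days nor the number of plants in a sample.

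The Calvin cycle fixes carbon dioxide in the chloroplast stroma. Rubisco joins carbon dioxide to ribulose bisphosphate, PGK and GAPDH reduce the product to triose phosphate with ATP and NADPH, and the regeneration enzymes rebuild the acceptor. In darkness CP12 binds GAPDH and PRK in a complex in which both enzymes are less active, and thioredoxin releases them in the light. In rice the flag leaf is a main supplier of sugar to the filling grain.

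The sums of FPKM over all genes ran from 824871 to 2467820 per library, and 3 abundant transcripts took 27.2% to 68.6% of a sum. The upper quartile of expressed genes stayed between 16.7 and 22.2 FPKM. Read counts were not analysed here, so absolute depth is unknown, while low values placed the relative depths between 1 and 2.51. Each library correlated at 0.915 to 0.976 across genes with a library of its line from the same hour of day. At hour 0, with 3 libraries per line, the closest other library was taken. The 4 leaf markers (a pair of chlorophyll-binding protein genes, a Rubisco small subunit and Rubisco activase) summed to 5485 to 54017 FPKM per library. Rubisco activase was listed at 0 in 7 libraries, and these values enter the sums. The 4 grain markers summed to 1.49 to 48.2 FPKM, highest in LY2186 at ZT15, and the 4 floral markers to 0.238 to 4.04 FPKM. Nothing in the labels ties the 17 libraries of each line to separate plants. A p-value here measures only how these libraries scatter, and that scatter may be technical.

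Calvin cycle transcripts were most abundant in SE21s, intermediate in the hybrid and least abundant in MH86. Summed over the 10 genes, the mean level over the 17 times was 15276 FPKM in SE21s, 10649 FPKM in LY2186 and 7624 FPKM in MH86. FBA, which condenses triose phosphates to fructose bisphosphate, made up a median of 50.8% of that sum in SE21s, 53.7% in LY2186 and 54.6% in MH86. In a bulk leaf sample, fewer cells of a type and less RNA per cell cannot be told apart.

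**Figure D1:**
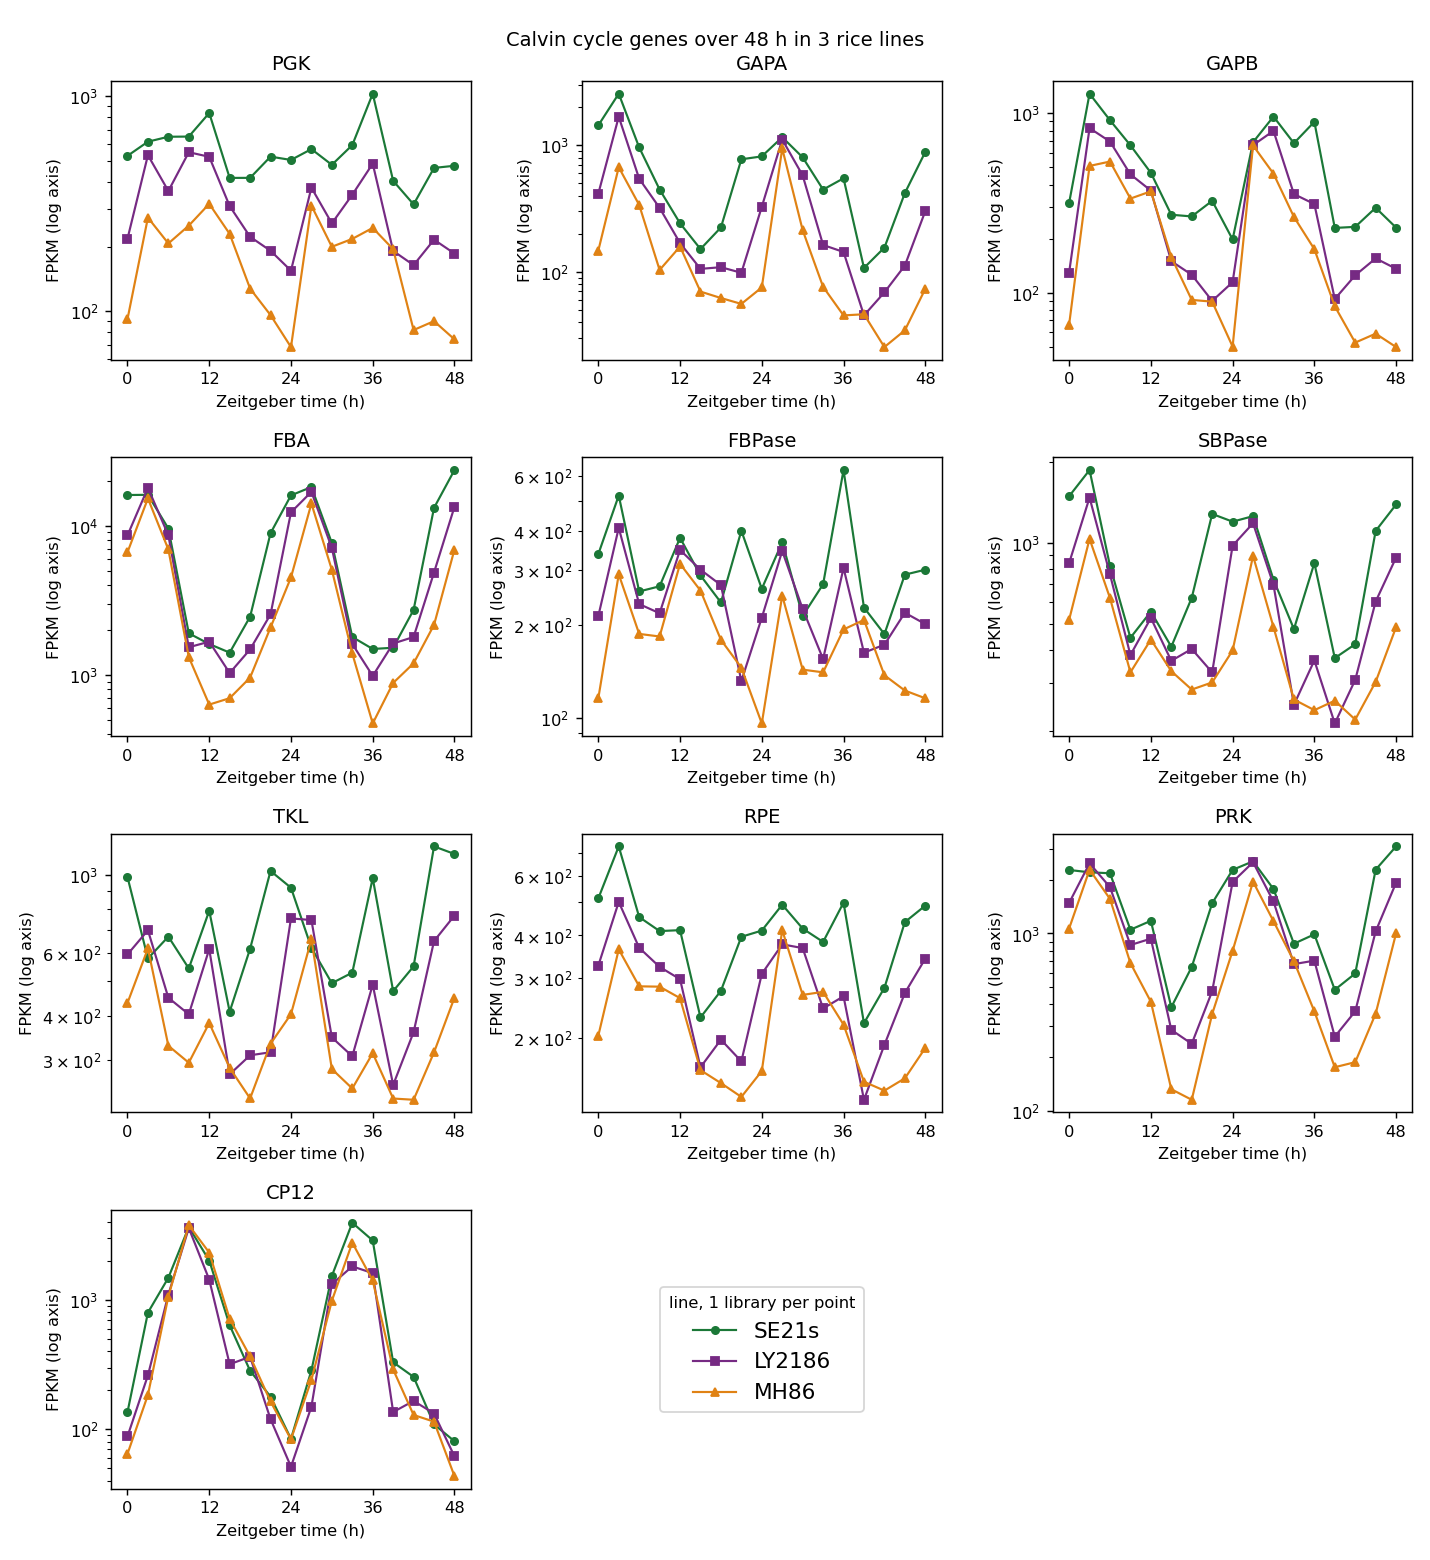
Level of each of the 10 genes in FPKM (vertical log axis, with its own range in each panel) against Zeitgeber time in h (horizontal axis), 1 library per point, in SE21s (green circles), LY2186 (purple squares) and MH86 (orange triangles). The SE21s curve lies above the MH86 curve at 162 of the 170 combinations of gene and time, and the CP12 curves cross.

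Among the reduction phase genes, PGK, which transfers phosphate from ATP to 3-phosphoglycerate, ranged in SE21s from 314 to 1030 FPKM with a median of 524 FPKM. PGK ranged from 155 to 550 FPKM in LY2186 with a median of 256 FPKM, and from 68.1 to 316 FPKM in MH86 with a median of 200 FPKM. The lowest SE21s library lay just below the highest MH86 library, and SE21s stood above MH86 at 17 of 17 times. GAPA, whose subunit also occurs without the B subunit, had a median of 548 FPKM in SE21s (107 to 2558), 169 FPKM in LY2186 (45.3 to 1681) and 75.2 FPKM in MH86 (25.4 to 944). GAPB, the subunit that carries a regulatory extension, had a median of 325 FPKM in SE21s (198 to 1285), 155 FPKM in LY2186 (90.0 to 826) and 158 FPKM in MH86 (49.8 to 661). The ranges of both subunits overlapped between lines when pooled over the day, while at 17 of 17 times SE21s was above both other lines for each subunit. The GAPB medians of LY2186 and MH86 were close to each other.

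Among the regeneration genes, FBA had the highest level per transcript length, with a median of 7645 FPKM in SE21s (1408 to 23551), 2543 FPKM in LY2186 (983 to 17900) and 2075 FPKM in MH86 (473 to 15201). PRK, which makes the carbon dioxide acceptor, had a median of 1481 FPKM in SE21s (383 to 3100), 935 FPKM in LY2186 (239 to 2523) and 681 FPKM in MH86 (115 to 2291). SBPase, which dephosphorylates sedoheptulose bisphosphate, had a median of 821 FPKM in SE21s (373 to 1863), 525 FPKM in LY2186 (213 to 1473) and 333 FPKM in MH86 (220 to 1034). The medians of all 3 genes were in the same line order while their ranges overlapped. FBPase, whose product can leave the cycle for starch synthesis, had a median of 288 FPKM in SE21s (187 to 629), 219 FPKM in LY2186 (132 to 410) and 179 FPKM in MH86 (96.3 to 314). TKL, which moves carbon units between sugar phosphates, had a median of 622 FPKM in SE21s (411 to 1201), 449 FPKM in LY2186 (255 to 767) and 315 FPKM in MH86 (232 to 657). RPE, which converts xylulose phosphate to ribulose phosphate, had a median of 415 FPKM in SE21s (221 to 731), 298 FPKM in LY2186 (132 to 502) and 203 FPKM in MH86 (134 to 415). These medians had the same order of lines, again with overlapping ranges. CP12 had medians of 329 FPKM in SE21s (81.0 to 3934), 261 FPKM in LY2186 (51.5 to 3580) and 290 FPKM in MH86 (43.6 to 3767), and its ranges in the 3 lines nearly coincided.

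The lines were then compared at equal times, on log2(FPKM + 0.5) with limma, Benjamini-Hochberg adjustment over 16842 genes and an adjusted p below 0.05 as the threshold. The 3 comparisons share libraries and are therefore not independent of each other. In SE21s minus MH86, 10 of 10 genes were higher, against 28.6% of all genes tested, and their median difference was 1.09 against -0.08 over all genes. GAPA had a log2 difference of 2.29 ± 0.20 (SE, adjusted p = 3.285e-12 by limma) and PGK one of 1.75 ± 0.12 (adjusted p = 2.269e-15). GAPB differed by 1.46 ± 0.14, PRK by 1.26 ± 0.14 and FBA by 1.14 ± 0.13. TKL differed by 1.04 ± 0.11, SBPase by 1.01 ± 0.12, RPE by 0.92 ± 0.08 and FBPase by 0.83 ± 0.11. The difference in CP12 was 0.44 ± 0.14 (adjusted p = 0.005085), and with quantile scaling it was 0.17 with an adjusted p of 0.308. On the linear scale the mean level in SE21s was 1.27 times that in MH86 for CP12 and 3.87 times for GAPA, with a median of 2.04 over the 10 genes. The summed leaf markers moved in the same direction, with medians of 23870 FPKM in SE21s, 19523 FPKM in LY2186 and 10475 FPKM in MH86, and their part in the result was not tested. The Rubisco small subunit and activase genes among these markers also act in carbon fixation, so the sum is no separate measure of leaf content.

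In LY2186 minus SE21s, 10 of 10 genes were lower, against 24.5% of all genes, with a median difference of -0.58 against 0.04 over all genes. The reduction phase genes had log2 differences of -1.17 ± 0.20 for GAPA, -0.92 ± 0.12 for PGK and -0.85 ± 0.14 for GAPB. The differences of the regeneration genes ran from -0.61 ± 0.11 for TKL to -0.39 ± 0.11 for FBPase, and that of CP12 was -0.60 ± 0.14. With quantile scaling, FBA was -0.26 with an adjusted p of 0.0769, and the adjusted p of the other 9 genes stayed below 0.05. In LY2186 minus MH86, 9 of 10 genes were higher, against 14.8% of all genes, with a median difference of 0.53 against -0.02. The largest differences were 1.12 ± 0.20 for GAPA and 0.83 ± 0.12 for PGK, and the smallest one called was 0.36 ± 0.08 for RPE. CP12 did not pass, at -0.16 ± 0.14 (adjusted p = 0.3776). In a fit without the time as a block, the daily swing enters the spread. The counts there were 3 genes lower than SE21s and 1 higher than MH86. In that fit 24.3% and 8.85% of all genes were called in either direction, so these counts are near the background. For SE21s minus MH86, 8 genes were called in that fit (40.4% of all genes), and FBA and CP12 were not. With the first day alone, 3 genes were higher than in MH86, where 14.7% of all genes were called in either direction.

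**Figure D2:**
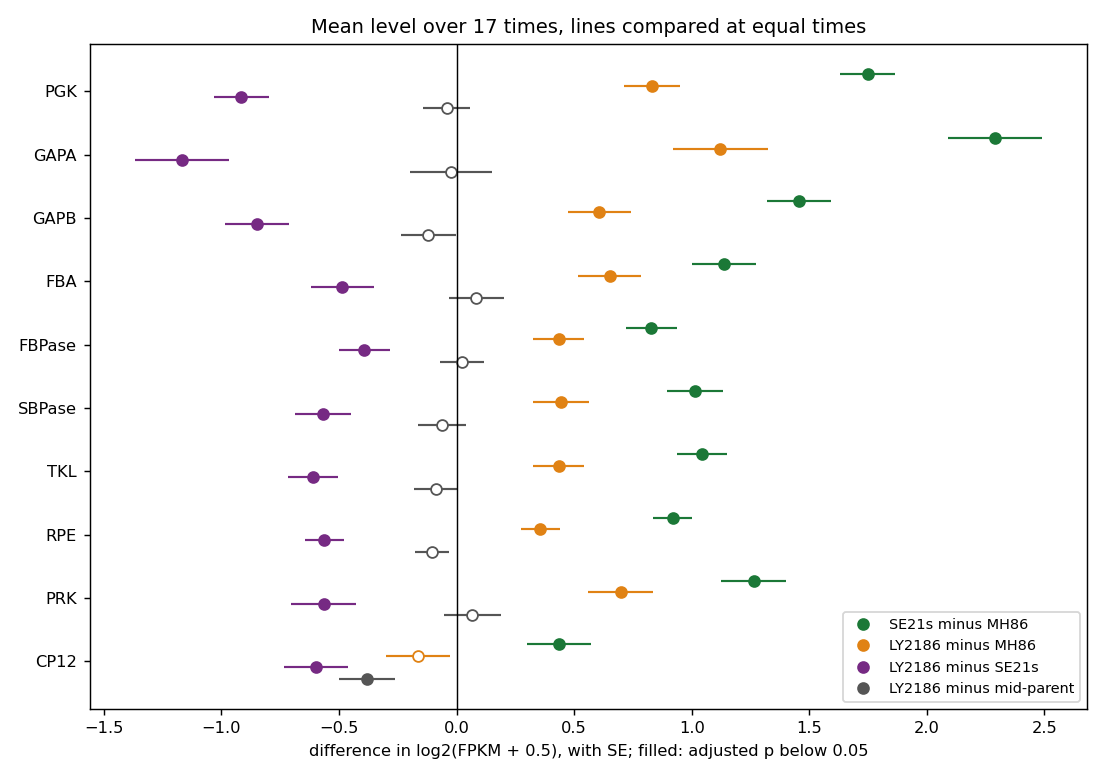
Difference in mean level over 17 times, in log2(FPKM + 0.5) (horizontal axis), for each of the 10 genes (vertical axis) and 4 comparisons by colour. Points are limma estimates, bars are SE and filled points have an adjusted p below 0.05; SE21s minus MH86 lies to the right of 0 in 10 of 10 genes, and LY2186 minus the mid-parent is filled for CP12.

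The hybrid was next set against the mean of its parents on the log2 scale. Of the 10 genes, 1 passed: CP12 was lower, with a log2 difference of -0.38 ± 0.12 (adjusted p = 0.01459), against 10.5% of all genes called lower. With the first day alone the estimate was -0.36 (adjusted p = 0.2537) and with the second alone -0.46 (0.07237), so the size stayed close and the call was lost. The estimates of the other 9 genes lay between -0.12 ± 0.12 for GAPB and 0.08 ± 0.12 for FBA, and the median over the 10 was -0.05. On the linear scale the mean level in LY2186 was 0.762 to 0.985 times the parental mean, with a median of 0.895 over the 10 genes. That ratio was not tested. Called both below SE21s and above MH86 were 9 of 10 genes, against 7.75% of all genes. At single times, the order SE21s, LY2186, MH86 from high to low held in 138 of 170 combinations of gene and time. It held at 12 or more of 17 times in 9 genes, against 7.67% of all genes tested. For PGK, GAPA and GAPB it held at 16 of 17 times each, and for CP12 at 7. The mean CP12 level was 747 FPKM in LY2186 against 864 FPKM in MH86 and 1097 FPKM in SE21s, and LY2186 was the lowest line at 8 of 17 times.

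Most of the 10 transcripts followed a 24 h curve, with fitted peaks early in the cycle for most enzymes and later for GAPB, PGK and CP12. A cosine and sine of 24 h period passed the limma test in 8 of 10 genes in SE21s (67.5% of all genes), 9 in LY2186 (71.1%) and 9 in MH86 (72.1%). These shares are near the background. Both the call and a fitted swing of 2-fold or more were found in 6 genes in SE21s (41.4% of all genes), 9 in LY2186 (46.3%) and 8 in MH86 (45.6%). Over the 10 genes the fitted swing had a median of 6.27-fold in MH86, 5.57-fold in LY2186 and 3.82-fold in SE21s, where the medians over all genes were 1.95-fold, 1.96-fold and 1.83-fold. Called in all 3 lines were 8 of 10 genes, against 54.4% of all genes.

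FBA and CP12 had the widest swings. For FBA the fitted curve changed 17.2-fold in SE21s and 14.8-fold in the hybrid, and 18.3-fold in MH86. CP12 changed 32.8-fold, 26.96-fold and 34.5-fold in the same order of lines. The hour-of-day mean of CP12 was highest at 9 h in each line, at 3790 FPKM in SE21s, 2696 FPKM in LY2186 and 3264 FPKM in MH86. CP12 was lowest at 0 h, at 100 FPKM in SE21s, 67.2 FPKM in LY2186 and 64.0 FPKM in MH86. The highest hour mean of FBA and of PRK was at 0 h in SE21s and at 3 h in LY2186 and MH86, so the CP12 minimum fell at or beside the maxima of these 2 genes. GAPA changed 9.07-fold, 12.6-fold and 9.19-fold, and PRK 4.91-fold, 7.78-fold and 12.8-fold, in SE21s, LY2186 and MH86. GAPB changed 4.29-fold, 7.46-fold and 9.20-fold in the same order of lines. These genes had several-fold swings in each line. SBPase changed 3.35-fold, 3.69-fold and 2.70-fold, and RPE 1.95-fold, 2.40-fold and 2.43-fold. PGK had a small swing in SE21s, 1.63-fold (adjusted p = 0.04406), while the hybrid had 2.55-fold and MH86 3.34-fold. The PGK call in SE21s was lost in 13 of the 17 refits that left out 1 SE21s library, without the filter on low values (adjusted p = 0.07241) and on either day alone. TKL did not pass in SE21s, at 1.65-fold (adjusted p = 0.09318 by limma), and changed 2.004-fold in the hybrid and 1.88-fold in MH86. With quantile scaling TKL passed in SE21s (adjusted p = 0.000703) and not in LY2186 (0.1113) or MH86 (0.2227), and on either day alone it passed in none of the 3 lines. The same scaling ended the RPE call in SE21s (adjusted p = 0.07081) and the SBPase call in MH86 (0.06083), which count among the 8 genes called in all 3 lines.

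Fitted peaks came earliest in SE21s and latest in MH86 for most rhythmic genes. In SE21s the FBA peak was at 1.15 ± 0.23 h after ZT0 (SE), in the hybrid at 2.12 ± 0.34 h, and in MH86 at 2.44 ± 0.29 h. PRK peaked at 2.45 ± 0.49 h, 3.66 ± 0.41 h and 4.22 ± 0.22 h in the same order of lines. SBPase peaked at 1.13 ± 0.62 h, 2.46 ± 0.64 h and 3.59 ± 0.73 h. Each of these 3 regeneration genes had its latest fitted peak in MH86. In MH86 the RPE peak was at 6.31 ± 0.52 h, against 4.35 ± 0.58 h in the hybrid and 3.72 ± 0.82 h in SE21s. GAPA peaked at 3.12 ± 0.43 h, 4.21 ± 0.40 h and 4.90 ± 0.70 h, and GAPB later, at 7.04 ± 0.60 h, 6.75 ± 0.47 h and 7.51 ± 0.58 h. PGK peaked at 8.0 ± 1.26 h, 8.64 ± 0.80 h and 9.31 ± 0.68 h, and CP12 at 9.61 ± 0.29 h, 9.74 ± 0.44 h and 10.2 ± 0.33 h. The 2 subunits of chloroplast GAPDH thus differed by more than 2 h in fitted peak in each line. Their highest hour means were nevertheless both at 3 h in SE21s and in MH86. In LY2186 GAPA was highest at 3 h, while GAPB was at 745 FPKM at 3 h and 747 FPKM at 6 h. The order SE21s, LY2186, MH86 held in 7 of the 8 genes called in all 3 lines, against 34.7% of the 9162 genes called in all 3 lines, with GAPB as the exception. The order of peaks was not tested gene by gene. Libraries were 3 h apart, and a fitted peak can lie away from the highest hour mean. The hour means of GAPA, SBPase and RPE were highest at 3 h in all 3 lines, and those of CP12 at 9 h. For FBA and PRK the highest was at 0 h in SE21s and at 3 h in LY2186 and MH86. For PGK it was at 12 h in SE21s and LY2186 and at 3 h in MH86. The median shift from SE21s to MH86 was 1.54 h in the 8 genes and 0.394 h in all 9162.

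**Figure D3:**
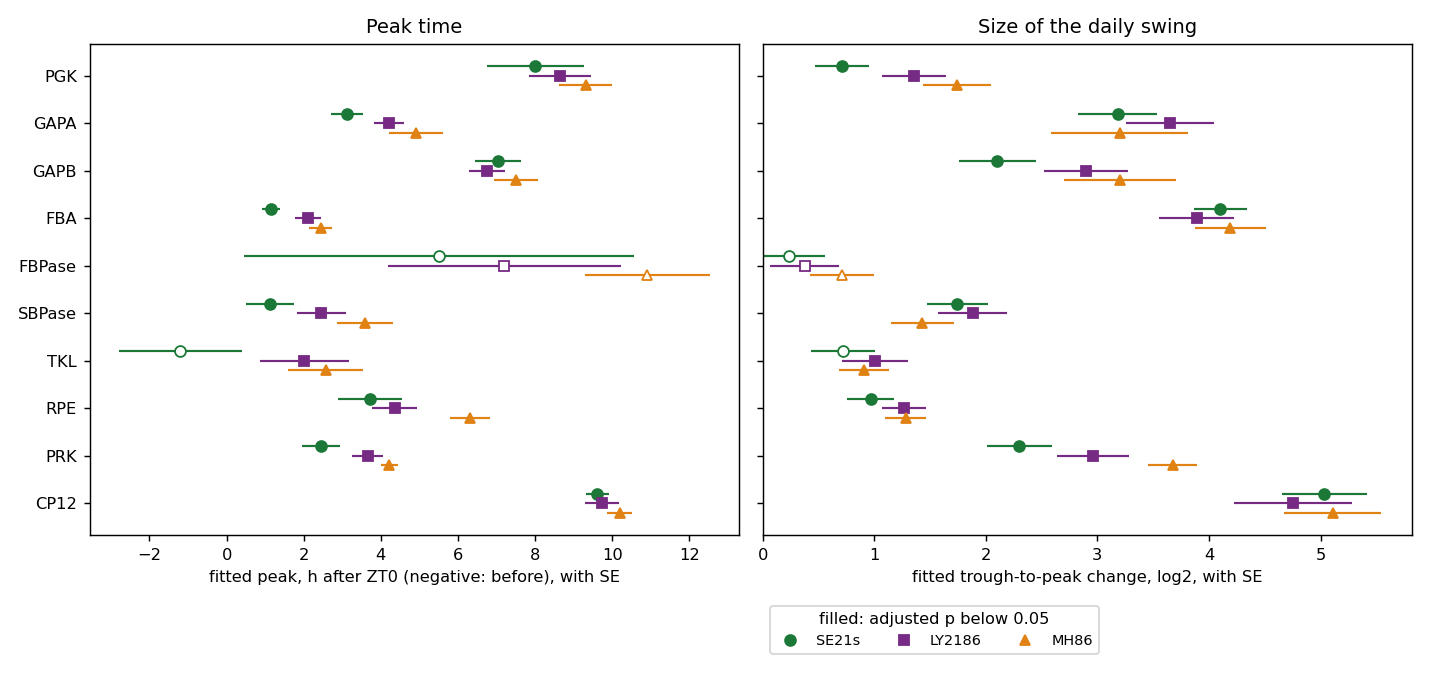
Left, fitted peak in h after ZT0, with peaks late in the cycle drawn as negative; right, fitted trough-to-peak change in log2 units, for the 10 genes (vertical axis) in SE21s (circles), LY2186 (squares) and MH86 (triangles). Bars are SE and filled points have an adjusted p below 0.05; FBPase is open in all 3 lines, and the SE21s peak comes first in 7 of the 8 genes that are filled in all 3.

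Whether the daily curve differed between lines was tested directly, as the difference of the cosine and sine terms between lines. Over the 3 lines, 4 of 10 genes passed, against 25.2% of all genes. These were PRK (adjusted p = 8.277e-05 by limma), RPE (0.0112), FBA (0.01359) and PGK (0.04596). Between the parents alone 6 of 10 passed, against 27.5% of all genes, with GAPB and SBPase in addition. PRK was the 1 gene of 10 that passed between LY2186 and SE21s (adjusted p = 0.01904, background 12.6%), and 0 of 10 passed between LY2186 and MH86 (background 2.33%), where 2 genes, RPE and PRK, had an unadjusted p below 0.05. Of the 4 genes called over the 3 lines, PRK also passed on the first day alone, while FBA (0.09559), RPE (0.05869) and PGK (0.1699) did not, and SBPase (0.03621) and GAPB (0.0195) did. On the second day alone 1 gene passed between the parents, against 4.27% of all genes, and 0 over the 3 lines, against 1.4%. Far fewer genes of any kind thus passed on that day alone. The call over the 3 lines was also lost with quantile scaling for FBA (0.0555) and without the filter on low values for PGK (0.08033). A joint test of cosine and sine does not separate a shift in time from a change in swing.

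Taken hour by hour, SE21s and MH86 lay furthest apart at 21 h and 0 h, and fewest genes passed at 3 h. Each hour of the cycle was represented by 2 libraries per line from different days, or 3 at hour 0, and p-values were adjusted over all genes and 8 hours together. In SE21s minus MH86, 51 of 80 combinations of gene and hour were called higher and 0 lower, against 10.2% called higher over all genes. Of the 10 genes, 9 were higher at 21 h and 9 at 0 h, where 15.5% and 16.2% of all genes were, and 2 were higher at 3 h, where 8.5% were. At the other hours 9 genes were higher at 12 h (9.1%), 8 at 18 h (11.5%), 6 at 15 h (6.6%), 4 at 6 h (7.27%) and 4 at 9 h (6.87%). Leaving out any 1 library kept the counts at 21 h and 0 h at 9. The 12 h count moved to 5 without SE21s ZT36 or MH86 ZT36, and the 15 h count to 3 without SE21s ZT15, SE21s ZT39 or MH86 ZT39. The 6 h count moved to 1 without SE21s ZT6 and to 2 without MH86 ZT30. The 3 h count was 1 without SE21s ZT3 or MH86 ZT3 and 4 without SE21s ZT27. The median log2 difference of the 10 genes was 2.03 at 21 h, 1.49 at 0 h and 0.68 at 3 h. It was similarly small at 6 h (0.61) and 9 h (0.69). CP12 passed at none of the 8 hours, with an estimate of 0.03 ± 0.52 at 21 h and 1.17 ± 0.52 at 3 h.

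FBA showed the pattern in single libraries. At 21 h the FBA level was 8890 and 13141 FPKM in the 2 SE21s libraries, 2543 and 4848 FPKM in LY2186, and 2075 and 2161 FPKM in MH86. At 3 h it was 16074 and 18120 FPKM in SE21s, 17900 and 16829 FPKM in LY2186, and 15201 and 14060 FPKM in MH86. At 21 h the 3 lines did not overlap, and at 3 h SE21s and LY2186 did. The FBA log2 difference between SE21s and MH86 was 2.35 ± 0.30 at 21 h (adjusted p = 2.391e-07 by limma) and 0.22 ± 0.30 at 3 h (adjusted p = 0.6624). PRK was likewise apart at 21 h, with 1481 and 2291 FPKM in SE21s, 472 and 1027 FPKM in LY2186, and 351 and 353 FPKM in MH86 at 21 h. At 3 h PRK was at 2214 and 2555 FPKM in SE21s, 2489 and 2523 FPKM in LY2186, and 2291 and 1961 FPKM in MH86. The PRK difference between SE21s and MH86 was 2.39 ± 0.29 at 21 h and 0.17 ± 0.29 at 3 h, and the libraries of the 2 parents overlapped at 3 h. TKL at 21 h was at 1024 and 1201 FPKM in SE21s, 316 and 649 FPKM in LY2186, and 333 and 315 FPKM in MH86. LY2186 overlapped MH86 there, while SE21s was above both.

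The reduction phase genes also separated at other hours. GAPA at 21 h was at 775 and 419 FPKM in SE21s, 98.2 and 112 FPKM in LY2186, and 55.8 and 34.5 FPKM in MH86, without overlap between lines. The GAPA difference between the parents was 3.68 ± 0.53 at 21 h (adjusted p = 2.091e-06 by limma) and 1.11 ± 0.53 at 3 h (adjusted p = 0.1383). PGK at 0 h was at 529, 506 and 476 FPKM in SE21s, 217, 155 and 186 FPKM in LY2186, and 91.9, 68.1 and 74.0 FPKM in MH86. These groups did not overlap, and the difference between the parents was 2.69 ± 0.20 (adjusted p = 4.057e-12). PGK was the 1 gene of the 10 that passed between the parents at all 8 hours.

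**Figure D4:**
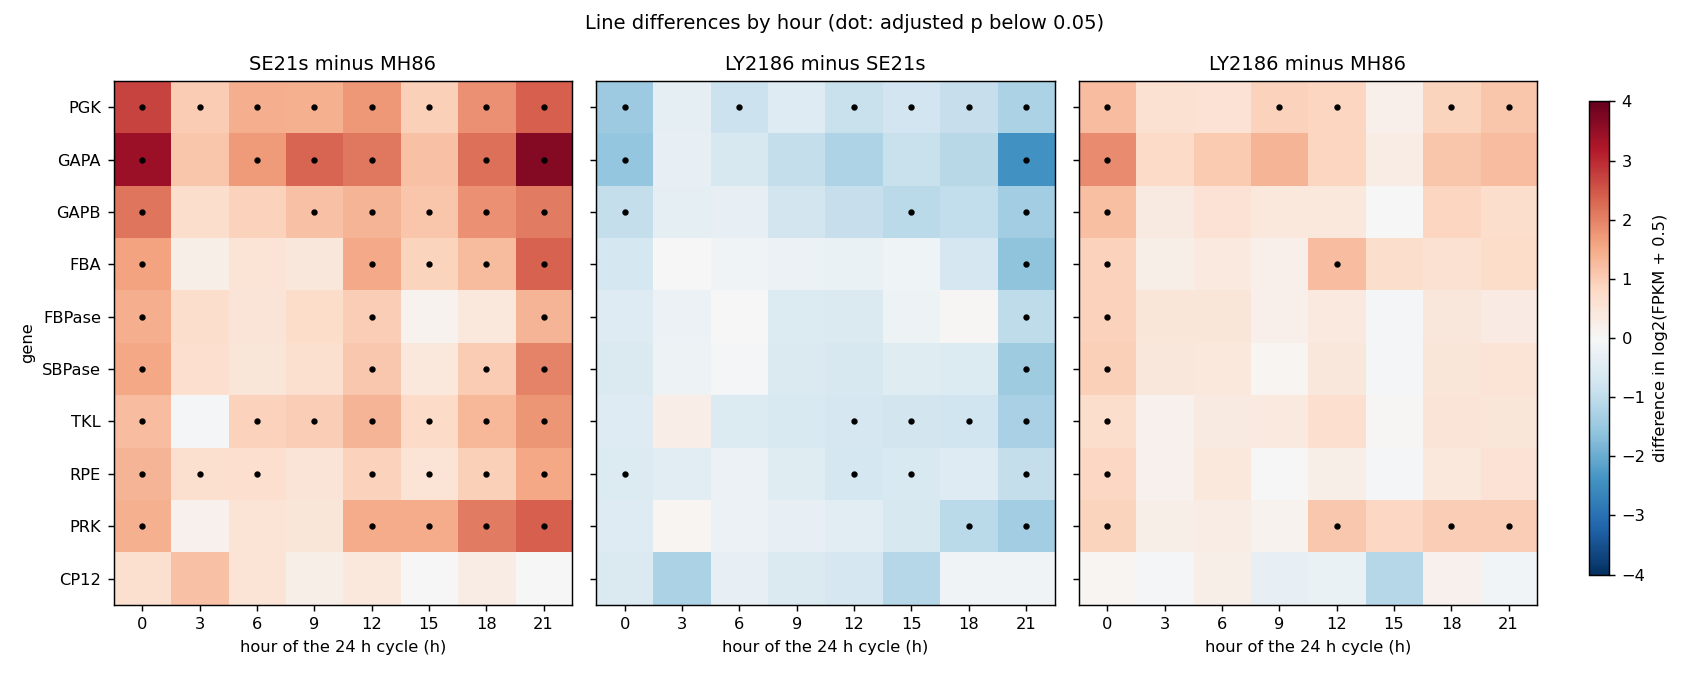
Difference between lines in log2(FPKM + 0.5) (colour scale, red higher and blue lower) for the 10 genes (rows) at 8 hours of the 24 h cycle (columns), in 3 comparisons (panels). Dots mark an adjusted p below 0.05; 9 of 10 rows carry a dot at 0 h and at 21 h in SE21s minus MH86, and CP12 carries none in any panel.

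At 21 h the hybrid was closer to MH86 than to SE21s, with a median log2 difference of 0.64 from the first and -1.34 from the second, and at 0 h these were 0.93 and -0.58. In LY2186 minus SE21s, 24 of 80 combinations were called lower and 0 higher, against 4.54% called lower over all genes. At 21 h 9 of 10 genes were lower (8.53% of all genes), and without the LY2186 library of ZT21 the count was 4. At 0 h 4 of 10 were lower (8.78%), with 1 to 6 when SE21s ZT0, SE21s ZT48, LY2186 ZT0 or LY2186 ZT24 was left out. At 3 h 0 of 10 were by limma (2.86%), with 2 at an unadjusted p below 0.05, and 2 were without SE21s ZT27. In LY2186 minus MH86, 17 of 80 combinations were called higher and 0 lower, against 2.83% called higher over all genes. At 0 h 9 of 10 genes were higher than in MH86 (5.21% of all genes), and the count was 5 without LY2186 ZT24 and 4 without MH86 ZT24. At 21 h 2 of 10, PGK and PRK, were higher (3.14%), with 1 to 5 when single libraries of LY2186 or MH86 were left out. From the 18 h to the 21 h mean, the 10 genes had a median change of 1.77-fold in SE21s, against 1.16-fold in the hybrid and 1.03-fold in MH86. At 21 h the genes stood at a median of 63.9% of their highest hour mean in SE21s, 32.6% in LY2186 and 24.02% in MH86.

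After the values had been seen, the line difference at 21 h was set against that at 3 h in the line-by-hour fit (limma, adjusted over all genes). Between SE21s and MH86 it was larger at 21 h in 6 of 10 genes, against 5.66% of all genes. The change was 2.13 ± 0.42 for FBA (adjusted p = 0.001023), 1.86 ± 0.32 for TKL (0.000203) and 2.22 ± 0.41 for PRK (0.0004287). It was 2.57 ± 0.74 for GAPA, 1.38 ± 0.35 for PGK and 0.91 ± 0.27 for RPE. The estimate for CP12 was -1.15 ± 0.73 and did not pass (adjusted p = 0.3948). In LY2186 minus SE21s the change passed in 3 of 10 genes, each lower at 21 h (2.41% of all genes): FBA at -1.65 ± 0.42, TKL at -1.55 ± 0.32 and PRK at -1.48 ± 0.41. In LY2186 minus MH86 0 of 10 passed by limma, with 0 at an unadjusted p below 0.05, where 0.125% of all genes were higher and 0.0475% lower. Since the hours were picked from these values, the contrast describes these libraries and is no independent test.

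FBPase did not pass the 24 h test in any line, with adjusted p-values of 0.8057 in SE21s, 0.5294 in LY2186 and 0.0919 in MH86, while with quantile scaling it passed in MH86 (0.01171). Its hour means had maxima at 3 h and at 12 h in each line. They were 445 and 505 FPKM in SE21s, 378 and 326 FPKM in LY2186, and 269 and 254 FPKM in MH86, with lower values at 6 h and 9 h. The 12 h values on the 2 days were 381 and 629 FPKM in SE21s, 348 and 305 FPKM in LY2186, and 314 and 193 FPKM in MH86. At 9 h they were 266 and 270 FPKM, 218 and 155 FPKM, and 183 and 141 FPKM in the same order, so on each day and in each line 12 h was above 9 h. At 15 h they were 288 and 227 FPKM, 301 and 163 FPKM, and 258 and 207 FPKM. On the second day in MH86, 15 h was thus above 12 h. A 12 h mean above both the 9 h and the 15 h mean was found in 7 of 10 genes in SE21s, against 27.7% of all genes. It was found in 5 of 10 in LY2186 (31.2%) and 5 of 10 in MH86 (26.2%), and PGK, FBPase, SBPase and TKL had it in all 3 lines. These are means, and single days could differ. SBPase in MH86 on the second day was at 261 FPKM at 9 h, 239 FPKM at 12 h and 259 FPKM at 15 h. PGK in LY2186 on the first day was at 550 FPKM at 9 h and 523 FPKM at 12 h. With a 12 h term added to the 24 h fit, TKL passed in SE21s (adjusted p = 0.002223 by limma) and FBPase in MH86 (0.02054).

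The 2 GAPDH subunit transcripts were next set against each other. The ratio of the GAPA to the GAPB level, both per transcript length, ran from 0.468 to 4.55 in SE21s with a median of 0.843. It ran from 0.455 to 3.20 in LY2186 with a median of 0.724, and from 0.259 to 2.22 in MH86 with a median of 0.583. In each line the highest ratio was at ZT0. At hour 0 the mean ratio was 4.17 ± 0.35 (SD, n = 3) in SE21s, 2.76 ± 0.50 in LY2186 and 1.73 ± 0.42 in MH86. No test of the ratio was listed, and these values are given as a description without a test.

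**Figure D5:**
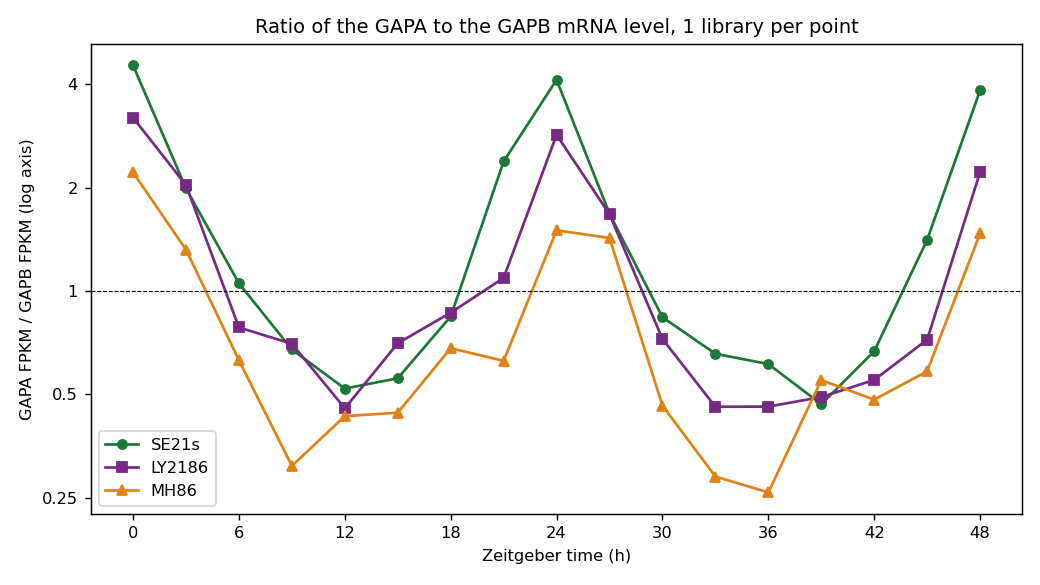
Ratio of the GAPA to the GAPB level in FPKM (vertical log axis) against Zeitgeber time in h (horizontal axis), 1 library per point, in SE21s (circles), LY2186 (squares) and MH86 (triangles). The dashed line marks equal levels; each line rises above it around ZT0, ZT24 and ZT48 and is highest at ZT0, at 4.55 in SE21s, 3.20 in LY2186 and 2.22 in MH86.

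Levels on the second day were compared with those on the first at the same hours, with 8 pairs per line. In SE21s 0 of 10 genes passed and 0% of all genes did (limma), while 0 of the 10 and 14.2% of all genes had an unadjusted p below 0.05. In LY2186 3 of the 10 had one, against 29.9% of all genes, and in MH86 6, against 31.2%. In LY2186 1 of 10 passed, against 4.98% of all genes: PGK was lower on the second day by -0.40 ± 0.10 (adjusted p = 0.02952). In MH86 1 of 10 passed, against 4.93%: GAPA was lower by -0.74 ± 0.21 (adjusted p = 0.04727). Both calls were lost when single libraries were left out, in 10 and 32 of 51 refits. The ZT48 libraries are not part of this test, so refits without them repeat the main fit. All 10 losses of the PGK call came from leaving out a LY2186 library. The estimates were below 0 for 7 of 10 genes in SE21s, 7 in LY2186 and 10 in MH86. Values near 0 of FBA, PRK and TKL changed sign under other scalings or when single libraries were left out. When libraries were left out, the sign changed for FBA, PRK and TKL in SE21s, PRK and TKL in LY2186, and PRK in MH86.

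Other genes of carbon fixation were compared from a list that holds Rubisco small subunits, Rubisco activase (RCA), plastid triose-phosphate isomerase, ribose-phosphate isomerase (RPI) and the triose-phosphate translocator (TPT). Of 7 genes tested, 6 were higher in SE21s than in MH86 with a median difference of 1.05, 6 were lower in LY2186 than in SE21s and 6 were higher in LY2186 than in MH86, where 28.6%, 24.5% and 14.8% of all genes were. RPI, which supplies ribulose phosphate, differed between the parents by 1.61 ± 0.11, and TPT, which exports triose phosphate from the chloroplast, by 0.82 ± 0.06. The plastid triose-phosphate isomerase gene differed by 0.91 ± 0.08 and the small subunit gene RBCS3 by 1.05 ± 0.10. RCA, which reactivates Rubisco, is named after its values were seen: it was listed at 0 in 7 libraries and did not pass; with those values set as missing its difference between the parents was 2.03 (adjusted p = 2.925e-08 by limma). None of the 7 passed a test of a difference in daily curve, in any of the 4 comparisons. Of all genes, 25.2% passed over the 3 lines and 27.5% between the parents. The share was 12.6% between LY2186 and SE21s and 2.33% between LY2186 and MH86. Between the parents RPI was near the threshold (adjusted p = 0.05703 by limma).

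Cytosolic isoforms of the same enzyme steps, which serve glycolysis and sucrose synthesis, were compared as a second list of 9 genes. Between SE21s and MH86, 3 of 9 were higher and 1 lower, with a median of 0.08 against -0.08 over all genes. Over all genes 28.6% were higher and 40.4% lower, so the share of cytosolic genes called higher was near the background. The cytosolic FBPase (LOC_Os01g64660) was higher by 0.66 ± 0.12 and an aldolase gene (cFBA2, LOC_Os06g40640) by 0.62 ± 0.13, and the cytosolic triose-phosphate isomerase (LOC_Os01g05490) by 0.32 ± 0.10. Another aldolase gene (cFBA1, LOC_Os05g33380) had a difference of -0.25 ± 0.10. In LY2186 minus SE21s 2 of 9 were lower (24.5% of all genes), and in LY2186 minus MH86 2 were higher (14.8%) and 1 lower (17.6%). A cytosolic PGK gene (cPGK1, LOC_Os02g07260) peaked at 22.4 h, 23.0 h and 23.7 h in SE21s, LY2186 and MH86, whereas the plastid gene peaked between 8.0 and 9.31 h. The daily curve differed between the parents in 1 of 9 cytosolic genes, against 27.5% of all genes. That gene was the cytosolic GAPDH gene GAPC3 (LOC_Os02g38920, adjusted p = 0.0339 by limma).

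Within a line, the 45 pairs of the 10 genes had a median correlation of 0.497 in SE21s, 0.557 in LY2186 and 0.559 in MH86 over 17 times, with extremes of -0.615 and 0.934. The points share the libraries and their scaling, and the values are descriptions. Over all 51 libraries, RPE (r = 0.977) and GAPA (0.957) were closest to the mean standardised profile of the 10 genes, and CP12 was farthest (0.226). Each of the 10 genes is itself part of that mean, which raises its r. Level differences between lines and the daily curve both enter these values. The 7 other carbon fixation genes had a median r of 0.786 with that profile and the 9 cytosolic isoforms one of 0.086, against -0.074 over all genes. Outside the lists the closest profiles were those of LOC_Os05g22614 (r = 0.960) and LOC_Os04g41340 (r = 0.955).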

How the data were processed

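Flag-leaf RNA was extracted with TRIzol and sequenced from strand-specific TruSeq libraries, per the labels' protocols. The authors deposited 1 table of FPKM values. The tools named for them are TopHat2 and Cuffdiff, per the submitters' processing notes, with versions, build and annotation not given in the sources used here. Samples were grouped by the line and time in the labels. The members and lists were chosen with earlier results of these data known. Symbols come from general knowledge of rice genes, since the table pairs no names with its identifiers, and 1 listed Rubisco small subunit locus was not analysed here. The scale was log2(FPKM + 0.5), and 16842 genes whose mean reached 1 FPKM were tested, using limma 3.58.1 in R 4.3.3 with trended, robust moderation, so a fold change on this scale understates that of low genes. Levels were fitted over 51 libraries with time as a block, rhythms as a 24 h cosine and sine, hours as line-by-hour means, and days as pairs 24 h apart in 48 libraries. The fits were also run on simulated data with independent noise in each library. Dependence between successive times was not simulated, and the outcome is not given here. Alternatives covered pseudocount, filter, scaling, time block, single days, a 12 h term and leaving out each of 51 libraries. All 10 members were named in every comparison; of the other lists, up to 4 with the smallest adjusted p were named, and from outside the lists the 2 genes closest to the mean profile. The precision rests on the number of libraries, as read depth is unknown.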

Additional observations from a re-analysis of the deposited data

Results flagged for a closer look

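The daily curve of several Calvin cycle genes differed between lines by a direct limma test, as adjusted p over all genes. Over the 3 lines these were PGK (0.04596), FBA (0.01359), RPE (0.0112) and PRK (8.277e-05). Between SE21s and MH86 they were PGK (0.01298), GAPB (0.03303), FBA (0.004618), SBPase (0.02283), RPE (0.005892) and PRK (1.055e-05), and between LY2186 and SE21s PRK (0.01904). The fitted swing of PRK was 12.8-fold in MH86, 7.78-fold in LY2186 and 4.91-fold in SE21s, with fitted peaks at 4.22 h, 3.66 h and 2.45 h. That of PGK was 3.34-fold, 2.55-fold and 1.63-fold in the same order of lines. The fitted peak of RPE was at 3.72 h in SE21s and at 6.31 h in MH86, while its highest hour mean was at 3 h in both. When single libraries were left out, the PGK call over the 3 lines was lost in 34 of 51 refits and the GAPB call between the parents in 11. On the first day alone the calls over the 3 lines were lost for FBA (0.09559), RPE (0.05869) and PGK (0.1699), and on the second day alone for all 4 genes. Of all genes, 15.7% passed over the 3 lines on the first day alone and 1.4% on the second. With quantile scaling FBA over the 3 lines was at 0.0555. Without the filter on low values PGK over the 3 lines was at 0.08033 and GAPB between the parents at 0.05911. The SBPase call between the parents was lost without SE21s ZT21 or MH86 ZT45.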

How the results depend on the processing

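Pseudocounts of 0.1 and 1 changed 1 of the 40 rhythm-difference results and no level, rhythm or day result of the 10 genes, and median-ratio scaling changed none of these. Shares of all genes given next count calls in either direction. With no filter on low values, 0 genes passed for the second day in MH86 (0.566% of all genes). With quantile scaling, 2 genes passed for the rhythm difference between LY2186 and SE21s (14.5%), and 11 combinations of gene and hour for LY2186 minus MH86 (5.16%). Without the time block, 3 genes passed for LY2186 minus SE21s (24.3%), 1 for LY2186 minus MH86 (8.85%) and 0 against the mid-parent (4.62%). On the first day alone, 3 passed for LY2186 minus MH86 (14.7%) and 0 against the mid-parent (10.8%). For the rhythm difference between LY2186 and SE21s, 0 passed on that day (3.61%). On the second day alone, 5 genes were rhythmic in SE21s (39%) and 0 passed against the mid-parent (7.02%). The rhythm difference was then called in 0 genes over the 3 lines (1.4%). Between SE21s and MH86 it was called in 1 (4.27%), and between LY2186 and SE21s in 0 (0.0713%). Single days hold fewer libraries; the other causes were not tested. No value that passed its test changed sign; estimates near 0 did, against the mid-parent for FBA, PGK, FBPase and GAPA and between days for FBA, PRK and TKL. Leaving out 1 library at a time, the level counts stayed at 10, 10, 9 and 1. Rhythm counts ran from 7 to 9 in SE21s, 8 to 9 in LY2186 and 9 to 10 in MH86. Rhythm differences ran from 3 to 8 over the 3 lines, 4 to 8 between the parents, 1 to 2 for LY2186 minus SE21s and 0 to 2 for LY2186 minus MH86. Hour counts ran from 47 to 54 for SE21s minus MH86, 19 to 27 for LY2186 minus SE21s and 12 to 22 for LY2186 minus MH86. Day counts ran from 0 to 0 in SE21s, 0 to 1 in LY2186 and 0 to 3 in MH86.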
